A study of Caenorhabditis elegans with 14 samples.

Results

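The infection response genes irg-1 to irg-5 and the transcription factor gene zip-2 of Caenorhabditis elegans were followed through total and polysomal RNA of worms labelled pycr-1(wrm22) and of wild-type worms. They are the entries of the authors' table whose gene name is irg-1, irg-2, irg-3, irg-4, irg-5 or zip-2, which are 6 of 41875 entries of a gene name and locus. All 6 were tested by the authors in every comparison used here, so no member was lost to a filter on low values.

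The irg genes are named for their induction when worms meet a pathogen, and they are known chiefly from the intestine, where the worm faces the bacteria it eats. ZIP-2 is a bZIP transcription factor that switches on irg-1 when Pseudomonas aeruginosa or its toxin ToxA blocks translation in intestinal cells, and it does so apart from the p38 kinase PMK-1. The mRNA of zip-2 carries upstream open reading frames, and irg-4 and irg-5 encode CUB-like domain proteins that depend on the PMK-1 pathway.

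The study compared a strain labelled pycr-1(wrm22), named for a pyrroline-5-carboxylate reductase gene of proline synthesis, with the wild-type strain Bristol N2. There were 4 libraries of mutant-labelled total RNA, 4 of mutant-labelled polysomal RNA, 3 of wild-type total RNA and 3 of wild-type polysomal RNA, 14 in all. Every group was of synchronized gravid worms on day 1 of adulthood, raised at 20 °C on plates seeded with the Escherichia coli strain OP50, with about 12000 worms harvested per genotype and replicate. No group is labelled as exposed to a pathogen. Both strains were washed and lysed in cycloheximide, a drug that stalls ribosomes on mRNA, and polysomal RNA was collected from the part of a sucrose gradient where an mRNA carries at least 3 ribosomes. The nature of the wrm22 allele is not described in the labels, nor is it said that replicates were separate cultures. The p-values therefore speak only for these libraries, with the spread that the authors' test modelled.

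Levels are given in FPKM, fragments scaled by transcript length and by library size, which the authors pooled into 1 value per gene and group. No value per library was given, and the depth of the libraries is unknown. The standard error after each ± was recovered from the deposited Cuffdiff test statistic, and a change was called where the deposited q-value, the p-value adjusted by the authors, was under 0.05. The gene pycr-1 itself, listed as M153.1, had 20.3 FPKM in mutant-labelled total RNA, against 4.91 FPKM in wild-type total RNA, and 40.8 FPKM in mutant-labelled polysomal RNA, against 12.6 FPKM in wild-type polysomal RNA. It was therefore higher in the groups that carry the mutant label, in the authors' deposited table by 2.05 ± 0.20 on the log2 scale in total RNA, and the strain labels could not be checked with it.

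Between the strains, all 6 genes were higher in mutant-labelled total RNA (q under 0.05 in the authors' deposited table), and 5 of 6 in polysomal RNA, with 0 lower in either. The background in total RNA is 18.6% of the 15557 tested entries called higher and 27.9% lower, and in polysomal RNA 14.8% of 14696 called higher and 23.9% lower. Higher in both fractions were 5 of 6, against 12.9% of the 14367 entries tested in both. The median log2 fold change of the 6 was 0.99 in total RNA, against -0.04 over all tested entries, and 1.05 in polysomal RNA, against -0.07. The genes irg-1 and irg-2 were 4.22 to 8.08 times higher across both fractions, and the called differences of irg-3, irg-4, irg-5 and zip-2 were 1.37 to 2.61 times.

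**Figure D1:**
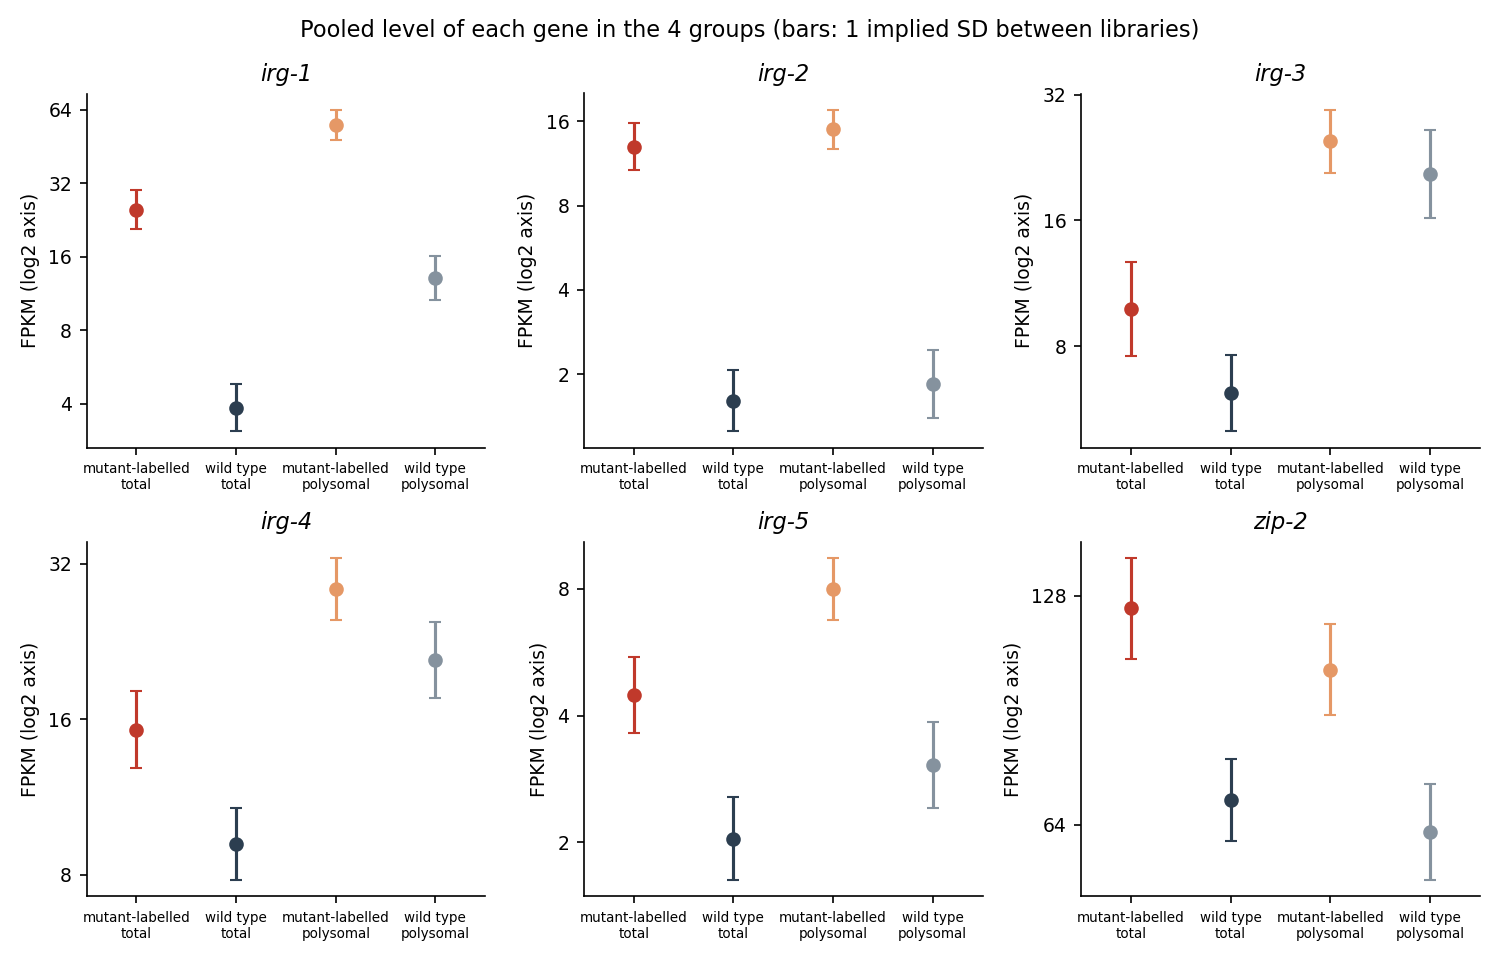
Pooled FPKM of each gene (log2 axis, own scale per panel) in mutant-labelled total, wild-type total, mutant-labelled polysomal and wild-type polysomal RNA. Points are the authors' pooled values and bars show 1 SD between libraries as implied by the deposited test statistics; for irg-2 both mutant-labelled points lie near 13 to 15 FPKM and both wild-type points under 2 FPKM.

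The regulator zip-2 (WBGene00019327, WBcel235 chromosome III, 832982 to 835814, plus strand) is annotated with 3 transcripts of 4 to 6 exons and 924 coding bases. It had 123 FPKM in mutant-labelled total RNA, against 69.0 FPKM in wild-type total RNA, and 102 FPKM in mutant-labelled polysomal RNA, against 62.6 FPKM in wild-type polysomal RNA. It was the most abundant of the 6 per transcript length in every group, and its percentile among tested entries was 94.4 and 92.5 in mutant-labelled total and polysomal RNA, and 86.6 and 87.1 in wild-type total and polysomal RNA. The authors' deposited table gave it a log2 fold change of 0.84 ± 0.15 in total RNA (Cuffdiff q = 0.000207) and 0.71 ± 0.16 in polysomal RNA (q = 0.000207). The value 0.000207 is the smallest q in the table.

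Of the genes ZIP-2 is known to induce, irg-1 (WBGene00015574, chromosome V, 3523587 to 3524679, plus strand, 4 exons and 636 coding bases) is the standard reporter. It had 24.9 FPKM in mutant-labelled total RNA, against 3.86 FPKM in wild-type total RNA, and 55.5 FPKM in mutant-labelled polysomal RNA, against 13.1 FPKM in wild-type polysomal RNA. In the authors' deposited table irg-1 was 6.46-fold higher in total RNA (log2 2.69 ± 0.23, Cuffdiff q = 0.000207) and 4.22-fold higher in polysomal RNA (log2 2.08 ± 0.20, q = 0.000207). Among 15496 entries with a finite change in total RNA it stood at place 121 from the top, and at place 28 of the 12369 with 1 FPKM or more in both groups.

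The gene irg-2 (WBGene00016783, chromosome V, 4042181 to 4043601, plus strand, 4 exons and 834 coding bases) was the lowest of the 6 in both wild-type groups. It had 12.99 FPKM in mutant-labelled total RNA, against 1.61 FPKM in wild-type total RNA, and 14.9 FPKM in mutant-labelled polysomal RNA, against 1.85 FPKM in wild-type polysomal RNA. The difference was 8.08-fold in either fraction, with log2 fold changes of 3.01 ± 0.25 in total RNA and 3.01 ± 0.26 in polysomal RNA in the authors' deposited table (Cuffdiff q = 0.000207 each). That put irg-2 at place 79 of 15496 in total RNA and 65 of 14663 in polysomal RNA.

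The CUB-like domain genes irg-4 and irg-5 moved less. The gene irg-4 (WBGene00008584, chromosome IV, 12435833 to 12438236, plus strand, 7 exons and 1035 coding bases) had 15.3 FPKM in mutant-labelled total RNA, against 9.17 FPKM in wild-type total RNA, and 28.6 FPKM in mutant-labelled polysomal RNA, against 20.8 FPKM in wild-type polysomal RNA. The authors' deposited table gave it a log2 fold change of 0.74 ± 0.18 in total RNA (Cuffdiff q = 0.000569) and 0.46 ± 0.17 in polysomal RNA (q = 0.0178). The gene irg-5 (WBGene00009429, chromosome V, 13737010 to 13738474, minus strand, 7 exons and 1029 coding bases) was the weakest of the 6 in both mutant-labelled groups. It had 4.49 FPKM in mutant-labelled total RNA, against 2.04 FPKM in wild-type total RNA, and 7.99 FPKM in mutant-labelled polysomal RNA, against 3.06 FPKM in wild-type polysomal RNA. The authors' deposited table lists for irg-5 a log2 fold change of 1.14 ± 0.24 in total RNA and 1.39 ± 0.23 in polysomal RNA (Cuffdiff q = 0.000207 each).

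The gene irg-3 (WBGene00018760, chromosome V, 2592591 to 2595062, plus strand, 3 transcripts of 3 to 4 exons with 381 to 660 coding bases) showed the smallest difference in both fractions. It had 9.81 FPKM in mutant-labelled total RNA, against 6.16 FPKM in wild-type total RNA, and 24.8 FPKM in mutant-labelled polysomal RNA, against 20.7 FPKM in wild-type polysomal RNA. By the authors' deposited table, irg-3 differed by 0.67 ± 0.26 on the log2 scale in total RNA (Cuffdiff q = 0.0212). In polysomal RNA that table gives 0.26 ± 0.24 (q = 0.343), with a 95% interval from -0.21 to 0.72, so a difference as large as that in total RNA is within its error. The 95% intervals for irg-3 minus irg-4 and irg-3 minus zip-2 in log2 fold change spanned 0 in both fractions. For irg-3 minus irg-5 the interval spanned 0 in total RNA only.

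**Figure D2:**
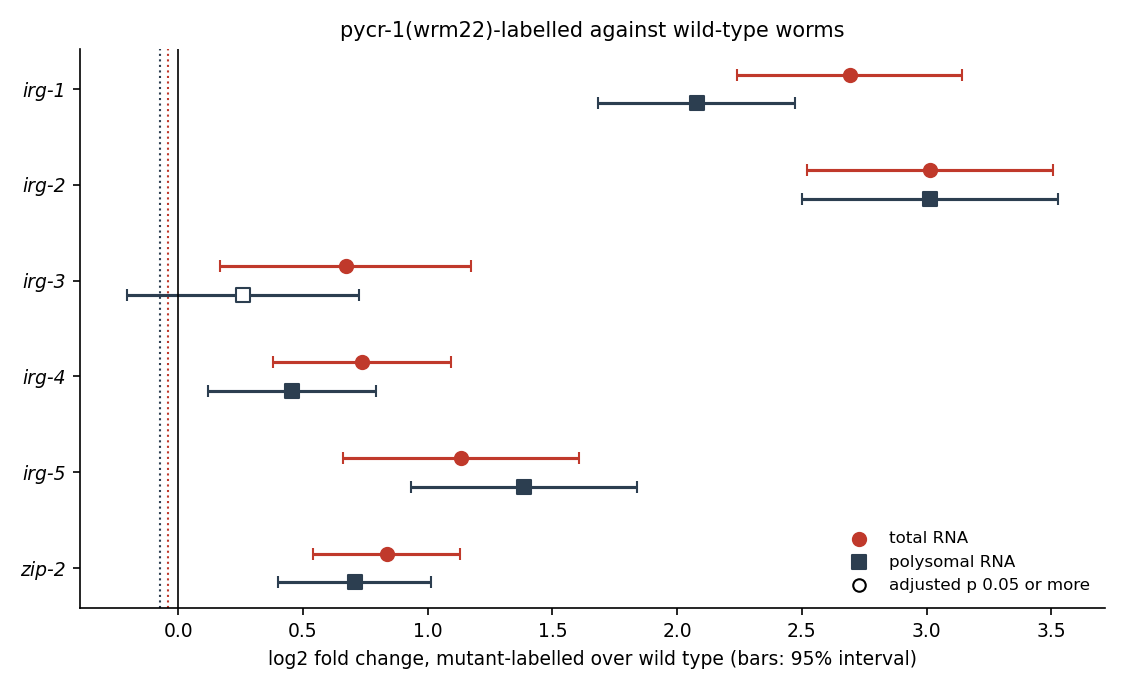
Log2 fold change of each gene, mutant-labelled over wild type, in total RNA (circles) and polysomal RNA (squares); bars are 95% intervals, open symbols have a deposited q of 0.05 or more, and dotted lines mark the medians of all tested entries. The points of irg-1 and irg-2 lie at 2.08 or more, those of the other genes at 1.39 or less, and the polysomal interval of irg-3 crosses 0.

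The division between the larger and the smaller changes was made after the values were seen and is a description. Each of irg-1 and irg-2 was set against each of irg-3, irg-4, irg-5 and zip-2, which makes 8 differences of log2 fold changes per fraction. In total RNA the 8 differences were 1.56 to 2.34, and in polysomal RNA 0.69 to 2.76, and the 95% interval lay above 0 for 8 of 8 in each. These intervals took the errors of different genes as independent, although the genes were measured in the same libraries. Between irg-1 and irg-2 the difference was -0.32 ± 0.34 in total RNA, within its error, and -0.94 ± 0.33 in polysomal RNA, where irg-2 changed more.

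**Figure D3:**
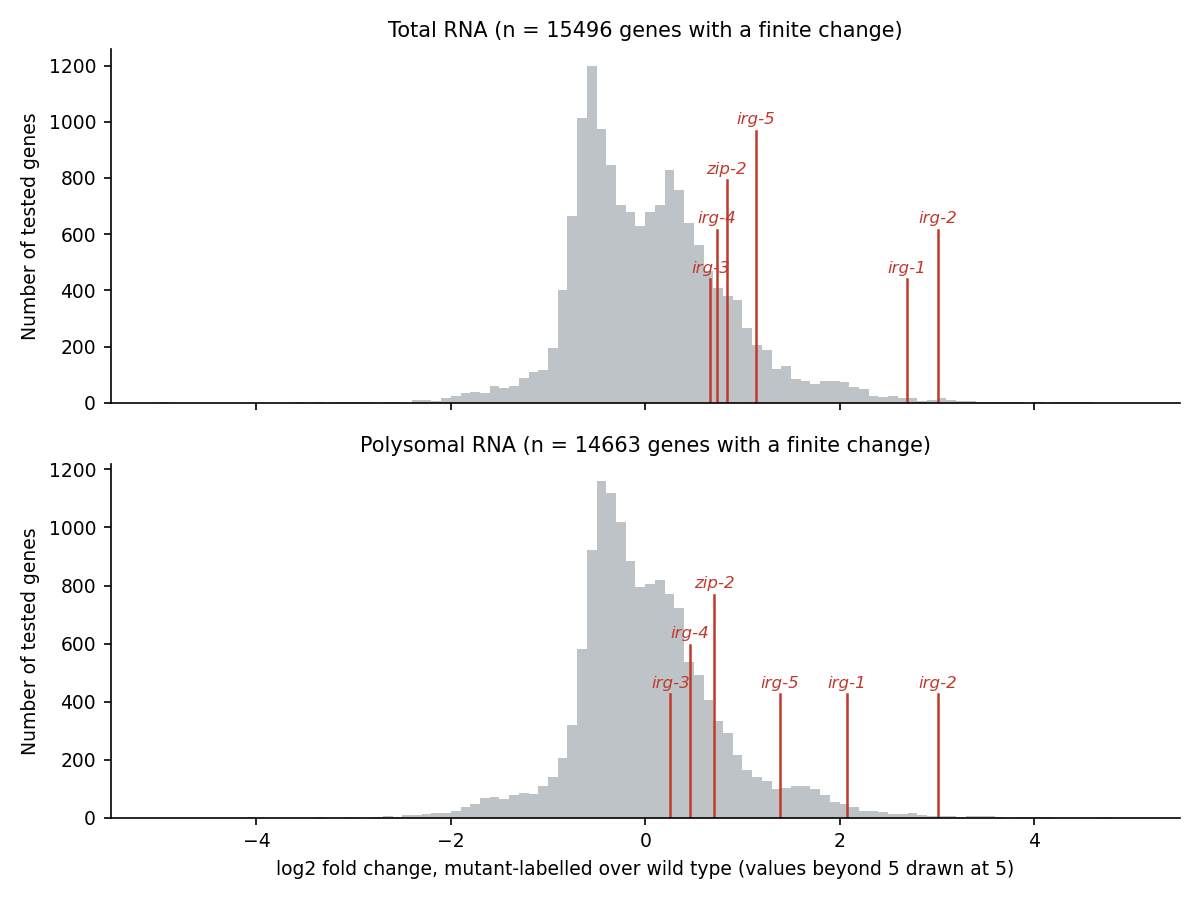
Number of tested entries by log2 fold change, mutant-labelled over wild type, in total RNA (upper panel) and polysomal RNA (lower panel), with the 6 genes marked by lines whose heights carry no value. The lines of irg-1 and irg-2 stand in the far right tail, and those of irg-3, irg-4 and zip-2 lie within the right shoulder of the distribution.

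The order of levels per transcript length differed between the strains. In both wild-type groups it was zip-2, irg-4, irg-3, irg-1, irg-5 and irg-2, from high to low. In mutant-labelled total RNA it was zip-2, irg-1, irg-4, irg-2, irg-3 and irg-5, and in mutant-labelled polysomal RNA irg-3 stood above irg-2. Neighbours in these orders lay within 1 joint SD, as implied by the test statistics, for irg-4 and irg-2 and for irg-2 and irg-3 in mutant-labelled total RNA, for irg-4 and irg-3 in both polysomal groups, and for irg-5 and irg-2 in wild-type total RNA. The gene irg-1 thus held the second place in mutant-labelled RNA and the fourth in wild-type RNA, and its gap to the next lower gene exceeded the joint SD in all 4 groups.

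Polysomal RNA was also set against total RNA within each strain, which asks how far the mRNA of each gene was found on 3 or more ribosomes relative to its level in the lysate. In mutant-labelled worms 4 of 6 genes were higher in polysomal RNA, against a background of 23.9% of 15425 entries called higher. In wild-type worms 3 of 6 were higher, against 24.7% of 15266 entries, and the remaining members were not called in either direction. These comparisons share their libraries with the strain comparisons and are given side by side with them.

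The genes irg-3 and irg-1 had the largest polysomal over total ratios. For irg-3 the log2 ratio in the authors' deposited table was 1.34 ± 0.23 in mutant-labelled worms and 1.75 ± 0.27 in wild-type worms (Cuffdiff q = 0.000207 each). For irg-1 it was 1.15 ± 0.17 in mutant-labelled worms and 1.77 ± 0.26 in wild-type worms (q = 0.000207 each in the authors' deposited table). Among the 11744 entries at 1 FPKM or more in both wild-type groups, irg-1 held place 6 and irg-3 place 7 from the top. The ratio of irg-4 was 0.90 ± 0.16 in mutant-labelled worms and 1.18 ± 0.19 in wild-type worms (q = 0.000207 each in the authors' deposited table). That of irg-5 was 0.83 ± 0.19 in mutant-labelled worms (q = 0.000393) and 0.58 ± 0.27 in wild-type worms (q = 0.0583) in the authors' deposited table.

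The mRNAs of irg-2 and zip-2 were not called in either strain. The log2 ratio of irg-2 in the authors' deposited table was 0.20 ± 0.18 in mutant-labelled worms (Cuffdiff q = 0.351) and 0.20 ± 0.31 in wild-type worms (q = 0.614). That of zip-2 was the only negative one, at -0.27 ± 0.15 in mutant-labelled worms (q = 0.121) and -0.14 ± 0.16 in wild-type worms (q = 0.471) in the authors' deposited table. The ratios of irg-1 and irg-2, the pair with the largest strain differences, differed from each other by 0.95 ± 0.25 in mutant-labelled worms and by 1.57 ± 0.41 in wild-type worms.

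**Figure D4:**
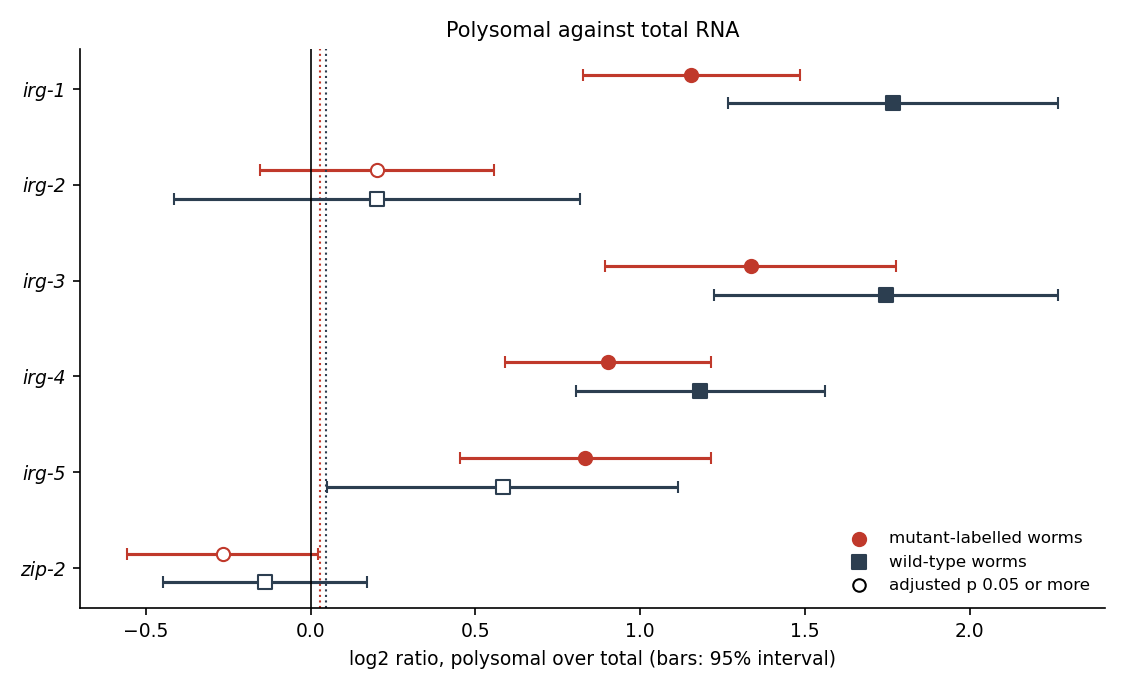
Log2 ratio of polysomal over total RNA for each gene in mutant-labelled worms (circles) and wild-type worms (squares); bars are 95% intervals, open symbols have a deposited q of 0.05 or more, and dotted lines mark the medians of all tested entries. The points of irg-1, irg-3 and irg-4 lie at 0.90 or more in both strains, those of irg-2 near 0.20 and those of zip-2 below 0.

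A Wald test on the deposited fold changes asked whether the strain difference itself differed between polysomal and total RNA, over 14011 entries with Benjamini-Hochberg adjustment. The test found a difference for 0 of the 6 genes, against 0.15% of all entries. Of the 6, 1 had an unadjusted p under 0.05, irg-1, as did 543 of the 14011 entries. For irg-1 the strain difference in polysomal RNA minus that in total RNA was -0.61 ± 0.31 (q = 0.9999 from that Wald test on the Cuffdiff statistics). For irg-2 it was 0.0011 ± 0.36, with a 95% interval from -0.71 to 0.71. The other values lay between -0.41 for irg-3 and 0.25 for irg-5, and each of their intervals spanned 0. The interval of irg-4, for example, ran from -0.77 to 0.21, which includes a difference as large as its strain effect in polysomal RNA.

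By position, 4 of the 6 genes lie on chromosome V, which holds 19.6% of tested entries. Of the tested entries on chromosome V, 22.1% were called higher in mutant-labelled total RNA, beside 18.6% of all tested entries. The nearest tested entries on either side gave 12 neighbours. In total RNA 5 of them were called higher, 1 lower and 6 neither, beside backgrounds of 18.6% higher and 27.9% lower. In polysomal RNA 5 were called higher and 2 lower, beside backgrounds of 14.8% higher and 23.9% lower. The higher neighbours in both fractions include linc-37, which lies within the annotated zip-2 gene and flanks only the interval of the zip-2 entry. Its polysomal call rests on 0.672 FPKM in mutant-labelled worms, against 0 FPKM in wild-type worms. T24A6.7, 699 bases from irg-1, had 4.49 FPKM in mutant-labelled total RNA, against 0.194 FPKM in wild-type total RNA (log2 4.54 ± 0.59, q = 0.000569 in the authors' deposited table). C49G7.10, 400 bases from irg-2, had 50.1 FPKM in mutant-labelled total RNA, against 8.09 FPKM in wild-type total RNA (log2 2.63 ± 0.19, q = 0.000207 in the authors' deposited table). The largest strain differences among the 6 genes thus stood beside neighbours with differences of similar or larger size. On their other sides, ugt-64 beside irg-1 and phat-3 beside irg-2 were not called in total RNA (-0.27 and 0.29 in the authors' deposited table). In polysomal RNA phat-3 was called lower (log2 -0.63, Cuffdiff q = 0.0226 in the authors' deposited table).

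Both neighbours of irg-5 were called higher too. F35E12.6 had 84.1 FPKM in mutant-labelled total RNA, against 51.0 FPKM in wild-type total RNA (log2 0.72 ± 0.16 in the authors' deposited table). F35E12.9 had 17.5 FPKM in mutant-labelled total RNA, against 7.18 FPKM in wild-type total RNA (log2 1.29 ± 0.18 in the authors' deposited table). Neither neighbour of irg-4 was called in total RNA (clec-184 and C25G4.2). In polysomal RNA C25G4.2 was called lower (log2 -0.49, Cuffdiff q = 0.0156 in the authors' deposited table). Beside irg-3, C29G2.2 was lower in total RNA by a log2 change of -0.56 (Cuffdiff q = 0.0469 in the authors' deposited table), while F53E10.6 was not called.

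The locus of zip-2 holds other transcripts. The noncoding RNA linc-37 lies within the annotated gene, on the same strand, but outside the interval of the zip-2 entry, which begins 876 bases after the annotated start. It had 5.87 FPKM in mutant-labelled total RNA, against 0.688 FPKM in wild-type total RNA (log2 3.09, q = 0.00223 in the authors' deposited table). How reads of the first part of the locus were assigned, and whether strand was used, is not given in the sources used here. The antisense gene dos-3 overlaps the zip-2 interval by 58 bases and had at most 0.0378 FPKM in any group.

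Among 11260 other entries at 1 FPKM or more in every group, those most like each gene were ranked by the distance between log2 profiles over the 4 pooled groups, each centred on its own mean. For irg-2 they were fbxa-128, an F-box gene (distance 0.172), F14F9.4 (0.240) and pgp-5, an ABC transporter gene (0.474). For irg-1 they were ora-1 (0.309), Y102A11A.5 (0.413) and F48G7.5 (0.415). By this choice the 6 share a high ratio between the strains, at differing levels: F48G7.5, for example, had 20.6 FPKM in mutant-labelled total RNA, against 2.66 FPKM in wild-type total RNA.

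The profiles of irg-4 and zip-2 had the closest matches. The nearest entries were M60.4 (0.0551), Y42H9AR.5 (0.0630) and Y48G1BR.1 (0.0631) for irg-4, and B0238.12 (0.117), col-3 (0.153) and T23F6.1 (0.158) for irg-5. For irg-3 they were F20A1.6 (0.170), D2007.1 (0.182) and dlc-3 (0.221), and for zip-2 ZC190.4 (0.0426), Y37D8A.5 (0.0525) and the zinc finger gene ccch-1 (0.0715). Among the members themselves the closest pair was irg-3 and irg-4 (0.519) and the farthest irg-2 and irg-3 (2.89). With 4 pooled points per profile, these distances are descriptions of likeness only.

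The C/EBP family genes cebp-1 and cebp-2 did not share 1 direction. The gene cebp-2, whose product works with ZIP-2 in inducing irg-1, had 27.9 FPKM in mutant-labelled total RNA, against 39.0 FPKM in wild-type total RNA, and was lower in total RNA (log2 -0.48, q = 0.0313) and in polysomal RNA (-0.55, q = 0.0497) in the authors' deposited table. The gene cebp-1 had 9.20 FPKM in mutant-labelled total RNA, against 5.09 FPKM in wild-type total RNA, and was higher in total RNA (0.85 ± 0.20, q = 0.000207 in the authors' deposited table). Of 25 tested bZIP factor genes, 3 were higher (atf-2, cebp-1 and zip-2) and 6 lower in total RNA, with a median log2 fold change of -0.05. In polysomal RNA 3 were higher and 4 lower, with a median of -0.02. These shares were no larger than the backgrounds of 18.6% higher and 27.9% lower in total RNA and of 14.8% higher and 23.9% lower in polysomal RNA. The largest called changes were those of atf-2 (1.33 ± 0.31) and zip-8 (-0.92 ± 0.35) in total RNA in the authors' deposited table, both at under 3 FPKM.

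Of the other irg-named genes, irg-8 (listed as ZK6.11) had 247 FPKM in mutant-labelled total RNA, against 192 FPKM in wild-type total RNA, and was called higher (log2 0.36 ± 0.15, q = 0.0296 in the authors' deposited table). It was not called in polysomal RNA (0.11, q = 0.561), and irg-7 was called in neither fraction. The gene irg-6 stayed at or under 0.0243 FPKM and was not tested.

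The p38 MAP kinase cassette drives irg-4 and irg-5 on pathogens. Of 10 tested genes, 2 were higher and 3 lower in total RNA (median -0.20), near the background of 18.6% higher and 27.9% lower. In polysomal RNA 2 were higher and 1 lower (median -0.06), beside backgrounds of 14.8% higher and 23.9% lower. The adaptor gene tir-1 had 9.29 FPKM in mutant-labelled total RNA, against 5.56 FPKM in wild-type total RNA (log2 0.74 ± 0.18, q = 0.000569 in the authors' deposited table). The kinase gene pmk-1 had 22.8 FPKM in mutant-labelled total RNA, against 31.2 FPKM in wild-type total RNA (-0.45 ± 0.16, q = 0.0129 in the authors' deposited table). The kinase genes pmk-2 (-0.51) and pmk-3 (-0.46) were lower, and the phosphatase gene vhp-1 (0.44), which the rule for naming genes did not pick, was higher in the authors' deposited table. In polysomal RNA pmk-2 was lower (-1.16), and tir-1 (0.89) and vhp-1 (0.56) were higher in the authors' deposited table. The gene pmk-1 was not called there (-0.25, Cuffdiff q = 0.194).

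Of 11 genes used as readouts of that pathway, 5 were higher and 0 lower in either fraction, beside backgrounds of 18.6% higher in total and 14.8% in polysomal RNA, with a median log2 fold change of 0.29 in total and 0.22 in polysomal RNA. The P-type ATPase gene catp-3 (C09H5.2) had 74.0 FPKM in mutant-labelled total RNA, against 6.39 FPKM in wild-type total RNA (3.53 ± 0.16 in the authors' deposited table). The reporter gene sysm-1 (listed as T24B8.5) had 21.1 FPKM in mutant-labelled total RNA, against 9.95 FPKM in wild-type total RNA (1.08 ± 0.23, in the authors' deposited table). The C-type lectin gene clec-67 had 14.7 FPKM in mutant-labelled total RNA, against 8.13 FPKM in wild-type total RNA (0.85 ± 0.18 in the authors' deposited table). The lectin gene clec-60 was called as well, but at 0.421 FPKM in mutant-labelled total RNA, against 0.168 FPKM in wild-type total RNA. The fifth was dod-22 (0.56 ± 0.19 in the authors' deposited table), outside the naming rule.

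**Figure D5:**
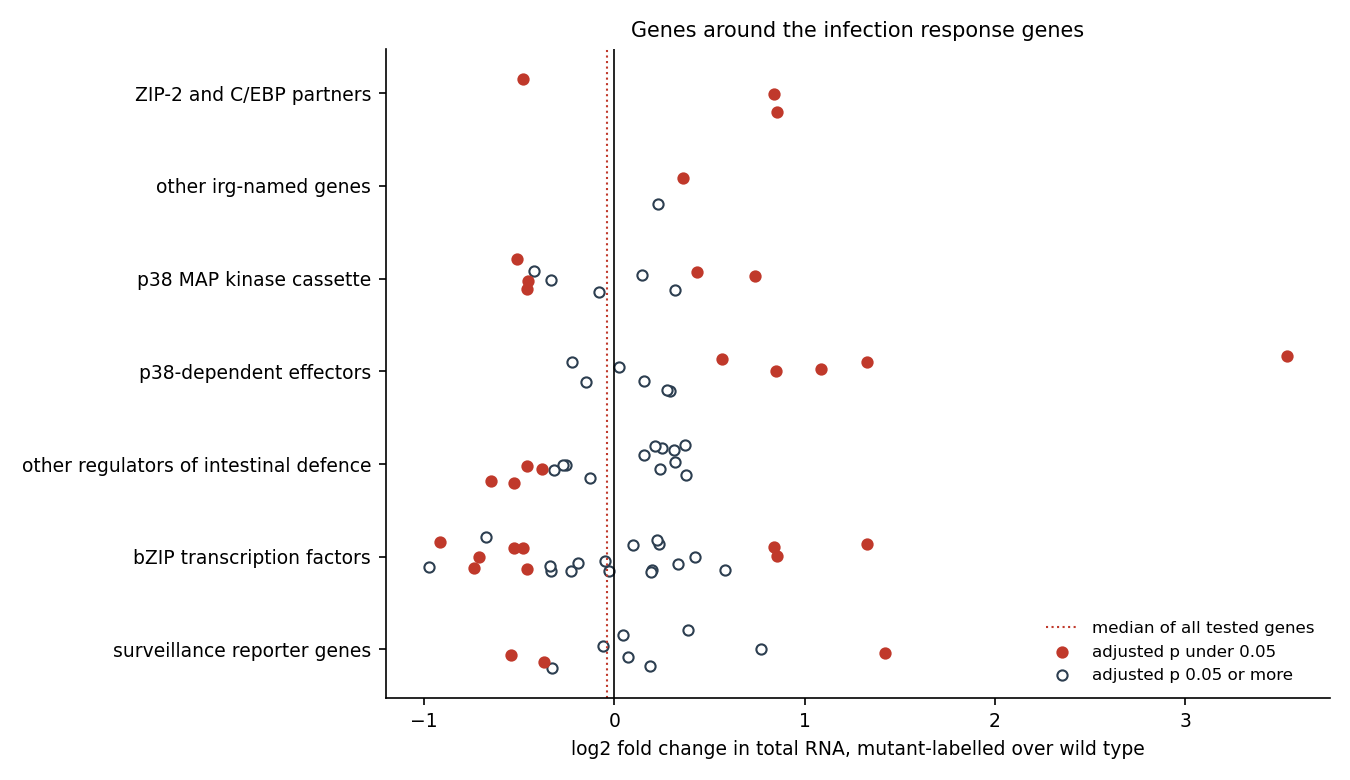
Log2 fold change in total RNA, mutant-labelled over wild type, of each tested gene of the 7 lists around the infection response genes; filled points have a deposited q under 0.05, and the dotted line marks the median of all tested entries. The p38-dependent effectors have 5 filled points, all above 0, with catp-3 at 3.53, and the other regulators of intestinal defence have 4, all below 0.

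Of 16 other regulators of intestinal defence, 0 were higher and 4 lower in total RNA (median 0.01), the share lower being near the background of 27.9%, and 0 were higher and 1 lower in polysomal RNA (median -0.02). The 4 were nhr-86 (-0.65 ± 0.18), skn-1 (-0.52 ± 0.15), atfs-1 (-0.46 ± 0.15) and nhr-49 (-0.38 ± 0.15) in total RNA in the authors' deposited table, and nhr-49 was the one also lower in polysomal RNA. Of 10 tested reporters of other surveillance responses, 1 was higher and 2 lower in total RNA (median 0.06), and 1 was higher and 3 lower in polysomal RNA (median 0.09). The backgrounds beside these counts are 18.6% higher and 27.9% lower in total RNA, and 14.8% higher and 23.9% lower in polysomal RNA. The osmotic stress gene gpdh-1 had 19.7 FPKM in mutant-labelled total RNA, against 7.34 FPKM in wild-type total RNA (1.42 ± 0.28 in the authors' deposited table). The mitochondrial chaperone genes hsp-6 (-0.54 ± 0.15) and hsp-60 (-0.37 ± 0.15) were lower in total RNA, and the endoplasmic reticulum chaperone gene hsp-4 was lower in polysomal RNA (-0.35 ± 0.15) in the authors' deposited table.

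Some lists of tissue markers differed between the strains as well. The backgrounds over all tested entries were 18.6% higher and 27.9% lower in total RNA, and 14.8% higher and 23.9% lower in polysomal RNA. Of 11 intestinal markers, 4 were higher and 0 lower in total RNA (median log2 0.31, summed level 3687 FPKM in mutant-labelled and 3379 FPKM in wild-type worms), and 1 was higher in polysomal RNA (median 0.13, summed 4843 FPKM in mutant-labelled and 4811 FPKM in wild-type worms). Of 12 germline and oocyte markers, 0 were higher and 11 lower in total RNA (median -0.91, summed 1392 FPKM in mutant-labelled and 2526 FPKM in wild-type worms), and 8 were lower in polysomal RNA (median -1.45). In bulk worms, fewer cells of a type and less RNA per cell cannot be told apart. Hypodermal markers were higher in 5 and lower in 0 of 9 in total RNA (median 1.80, though the summed level was 1132 FPKM in mutant-labelled and 1304 FPKM in wild-type worms), and sperm markers were higher in 6 of 7 (median 0.89). In polysomal RNA 5 hypodermal markers were higher and 1 lower (median 1.58). Their summed level there was 1780 FPKM in mutant-labelled and 2421 FPKM in wild-type worms. Of the 7 sperm markers 4 were higher in polysomal RNA (median 0.51). Of 8 muscle markers 1 was higher (median 0.12) and of 7 neuronal markers 2 were higher (median 0.34), with none lower in total RNA. In polysomal RNA 0 muscle markers were called (median -0.01), and 1 neuronal marker was higher and 1 lower (median 0.17). No marker of these lists was at 0 in any group, and the part of tissue makeup in the changes of the 6 genes was not tested.

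FPKM values are shares of a library, so the changes were also set against those of well measured genes. Entries that reached 5 FPKM in both strains had a median log2 fold change of -0.35 in total RNA and -0.26 in polysomal RNA. Relative to these, the changes of the 6 genes ran from 1.02 for irg-3 to 3.36 for irg-2 in total RNA and from 0.52 for irg-3 to 3.27 for irg-2 in polysomal RNA. The medians over all tested entries were -0.04 in total and -0.07 in polysomal RNA, so this reference raises every change. With this centring 33.8% of all tested entries were called higher in total RNA and 23.1% in polysomal RNA. Between fractions, intestinal markers were higher in polysomal than in total RNA for 7 of 11 in mutant-labelled worms (median 0.52) and for 8 of 11 in wild-type worms (median 0.67), and muscle markers for 8 of 8 in each strain. Over all tested entries, 23.9% were called higher in polysomal RNA in mutant-labelled worms and 24.7% in wild-type worms. The ratios of irg-1, irg-3 and irg-4 exceeded these intestinal medians in both strains, those of irg-2 and zip-2 were below them, and that of irg-5 was above the median in mutant-labelled worms and below it in wild-type worms.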

How the data were processed

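RNA-seq of total and polysomal RNA from 14 libraries in 4 groups was used as processed by the authors. The submitters' processing notes name the genome build WBcel235 and the tools Cuffdiff 2.2.1, StringTie 1.3.4d, HISAT2 2.1.0 and FastQC 0.11.7. Whether strand was used and how multiply mapped reads were handled is not given in the sources used here. The deposited table gives FPKM values, pooled by the authors per gene and group. For each of 6 pairs of groups the deposited table also gives the log2 fold change, the test statistic (a score), the p-value and the q-value, which is adjusted over all 91924 tests. The 2 pairs that differ in both strain and fraction were left out. No value per library exists in the table, so depth is unknown and no interval that needs it was computed.

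Standard errors were recovered as the natural log of the fold divided by the statistic, the variance of a group being divided by how many libraries it had. For total RNA entries with deposited p-values from 0.001 to 0.01, the median p was 0.0031 as deposited, 0.00206 from a normal test with divided variances and 0.100 with undivided ones. Only the Wald test was tried on simulated data, drawn with the same recovered variances that it uses. That trial cannot show whether those variances are right. Python 3.11.15, NumPy 2.4.6, pandas 2.3.3 and SciPy 1.17.1 were used, and gene positions came from Ensembl release 115 of WBcel235. The Wald test of the difference between fractions took all libraries as independent.

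The 6 genes, the 7 pathway lists and the 6 marker lists were chosen with earlier results of these data known. All 6 genes are named, and of each pathway list the called genes, or the 4 with the largest change in total RNA where more than 4 were called. The 3 nearest profiles and the nearest tested neighbour on either side are named too. Entries with several gene names were left out of the lists, and drd-50 was dropped because it had been entered as another name of C17H12.8. A planned count of promoter motifs was not run and no sequences are printed, since no sequence was used here.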

Additional observations from a re-analysis of the deposited data

How the results depend on the processing

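The 6 genes were retested in 4 comparisons under 5 settings, 2 of them centred, which makes 120 retests. Of these, 112 kept their side of the threshold, 7 lost a call, 1 gained one and 0 reversed. Adding 1 or 0.1 to FPKM left the deposited q as it was, and 0 directions reversed there. At q under 0.01, 5 members were higher in total RNA, without irg-3 (13.3% of all entries), and 4 in polysomal RNA, without irg-4 (9.73%). Under normal tests with undivided variances, 2 members were called higher in total RNA (3.31% of all entries) and 3 in polysomal RNA (2.63%). The calls lost there in total RNA were irg-3 (0.67, recomputed q = 0.383), irg-4 (0.74, 0.162), irg-5 (1.14, 0.103) and zip-2 (0.84, 0.0540). Those lost in polysomal RNA were irg-4 (0.46, q = 0.486) and zip-2 (0.71, 0.162). The gene irg-5 lost its polysomal over total call in mutant-labelled worms (0.83, q = 0.124), which left 3 members called there, beside 4.85% of all entries. The undivided variance makes these tests stricter by construction, and the divided one comes closer to the deposited p-values. Centred on entries at 5 FPKM or more, the polysomal over total ratio of zip-2 in mutant-labelled worms was -0.38 and passed the threshold (q = 0.0237 from a normal test on the Cuffdiff statistics), and the share of all entries called higher became 33.8% in total and 23.1% in polysomal RNA.

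No paired analysis was possible because the deposited table holds no value per library. Leaving out each replicate could not be run for the same reason, so whether 1 library decides any value is unknown. The smallest deposited p-value, 5e-05, sets the smallest q of 0.000207, which ranks no gene above another.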

Other observations

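A wider set of immune genes was added after the values were seen. Of the entries that the deposited table annotates with innate immune response, 257 were tested in total RNA, and 104 were higher and 15 lower in mutant-labelled worms, with a median log2 fold change of 0.41, beside backgrounds of 18.6% higher and 27.9% lower. Without the members, 99 were higher. In polysomal RNA 80 were higher and 14 lower of 262 tested, with a median of 0.32, beside backgrounds of 14.8% and 23.9%, and 76 were higher without the members. Between fractions, 130 of 262 were higher and 30 lower in polysomal than in total RNA in mutant-labelled worms, beside a background of 23.9% higher. In wild-type worms 131 of 255 were higher and 21 lower, beside 24.7% higher and 26.9% lower. In the annotation, irg-1 to irg-5 carry this term, zip-2 carries its positive regulation, and irg-4, irg-5 and zip-2 also carry defence against Gram-negative bacteria.

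The neighbour of irg-2, C49G7.10, was lower in polysomal than in total RNA, where irg-2 was not called. C49G7.10 had 7.12 FPKM in mutant-labelled polysomal RNA, against 50.1 FPKM in mutant-labelled total RNA, and 1.14 FPKM in wild-type polysomal RNA, against 8.09 FPKM in wild-type total RNA. Its strain difference was 2.64 ± 0.30 in polysomal and 2.63 ± 0.19 in total RNA on the log2 scale in the authors' deposited table.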
